A study of Mus musculus with 6 samples.

Results

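The genes described here encode the endocytosis machinery and the vesicle uptake receptors of the cell. They were chosen by symbol from a list of 56 genes, and all 56 were present among the 30055 gene symbols of the deposited count table. Of these, 55 passed a filter on low counts and were tested among 15035 genes. The exception was Picalm, a clathrin assembly adaptor, which was listed at 0 in all 6 libraries. The cells were lung endothelial cells from 3-week-old female C57BL6 mice that lack Ch25h, the enzyme that makes 25-hydroxycholesterol, so the controls carried this deletion too. Vehicle cells received PBS, TEV cells received extracellular vesicles of the MC38 colorectal tumour line at 20 µg/ml for 12 h, and TEV plus reserpine cells were pretreated with 10 µM reserpine for 8 h before the same vesicles. Reserpine is an inhibitor of vesicular monoamine transport used against high blood pressure. Each group had 2 poly(A) RNA-seq libraries. The labels do not say whether these came from separate mice or cultures, so p-values measured only the spread between these libraries, which may be technical. A group with reserpine and no vesicles was not analysed here.

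Cells take up extracellular vesicles by several routes. Clathrin and its AP2 adaptor coat pits that dynamin severs, caveolins and cavins form the flask-shaped caveolae that are abundant in lung endothelium, and actin-driven macropinocytosis engulfs fluid and particles in bulk. Vesicles first bind surface molecules such as heparan sulfate proteoglycans, CD44, lipoprotein and scavenger receptors, or the TAM receptors, which recognise phosphatidylserine through bridging proteins.

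Libraries held 22270657 to 81225627 estimated counts. Expression is given as CPM, counts scaled to a common library size, with TMM factors of 0.941 to 1.04, and a gene was called changed at an edgeR Benjamini-Hochberg adjusted p under 0.05 over all 15035 genes. Ch25h stood at 0.313 to 1.08 CPM in all 6 libraries, and the sources used here do not state the deleted stretch. Summed CPM of 12 endothelial markers was 5042 to 5087 with vehicle, 10312 to 10457 with TEV and 10001 to 10257 with TEV plus reserpine. Against vehicle, 9 of them rose with TEV and 3, Kdr, Tek and Cldn5, fell. Emcn, Eng and Pecam1 rose most with TEV, from means of 360, 491 and 741 CPM to 2582, 1909 and 1977. Cdh5 rose 1.29-fold and Tie1 1.21-fold. Markers of other cell types moved with the groups as well. The 12 fibroblast markers summed to 3003 to 3462 CPM with vehicle, 343 to 401 with TEV and 459 to 510 with TEV plus reserpine. Of 11 tested, 10 fell with TEV while Thy1 rose. Thy1 made up most of the vesicle sums, at 286 and 333 CPM with TEV and 409 and 375 with TEV plus reserpine. Tcf21 and the pericyte marker Cspg4 had no counts in the 4 vesicle libraries. The 10 pericyte and smooth muscle markers summed to 2481 to 2498, 1223 to 1399 and 1424 to 1529 CPM in the same order, and 9 of 10 fell with TEV. Tagln at 648 to 719 CPM and Mcam at 441 to 599 CPM made up most of the sums in the vesicle libraries. The median log2 change of the 10 against vehicle was -2.90 with TEV and -2.29 with TEV plus reserpine. The 12 macrophage and leukocyte markers summed to 66.6 to 77.3, 31.8 to 32.5 and 37.4 to 38.9 CPM, and the 6 lymphatic endothelial markers to 1574 to 1581, 1191 to 1193 and 1229 to 1241 CPM. The sums of 2 low lists were higher with TEV: 8 colon epithelial markers at 17.1 to 17.3, 37.6 to 40.4 and 23.5 to 24.3 CPM, with Krt19 and Krt20 called higher and Cdx1 at 0 in all libraries, and 11 lung epithelial and mesothelial markers at 24.5 to 26.5, 32.3 to 33.7 and 41.3 to 46.0 CPM, with Krt18 called higher and 5 of 7 tested called lower. In such bulk libraries, fewer cells of a type and less RNA per cell cannot be told apart.

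**Figure D1:**
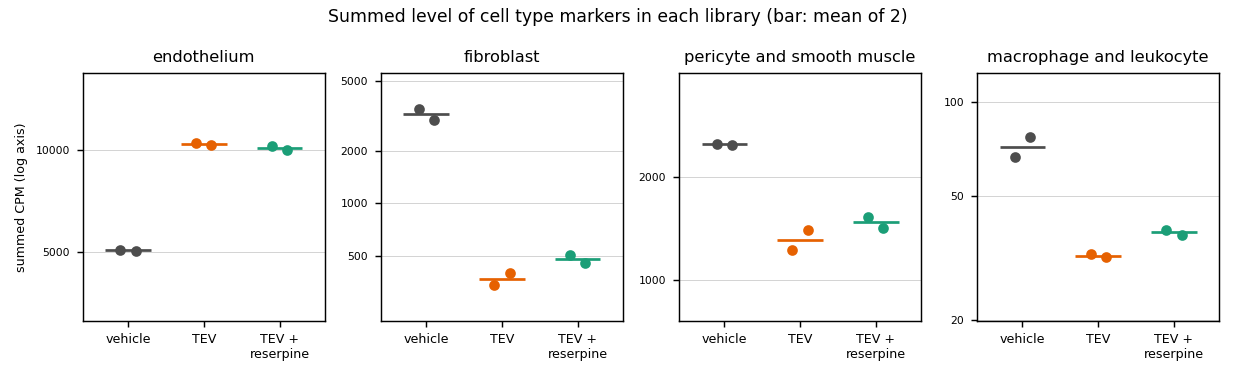
Summed expression of endothelial, fibroblast, pericyte and smooth muscle, and macrophage markers in each of the 6 libraries (CPM, log axis, 1 point per library, bars at the mean of 2). The fibroblast list lay at 3003 to 3462 CPM with vehicle and at 343 to 510 CPM in the 4 vesicle libraries, while the endothelial list lay at 5042 to 5087 and at 10001 to 10457 CPM. In the 4 vesicle libraries Thy1 made up most of the fibroblast sum, and Tagln and Mcam most of the pericyte and smooth muscle sum. Of the endothelial list, Emcn, Eng and Pecam1 rose most with TEV.

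Tumour vesicles were followed by higher levels of 17 of the 55 tested genes and lower levels of 19. The called share was 65.5%, against 49.7% of all genes (25.1% higher and 24.6% lower), and 16 of the 55, or 29.1%, were called with a change of at least 2-fold, against 23.0% of all genes. The median log2 change of the 55 was 0.15, and that of all genes was 0.01. Between TEV plus reserpine and TEV, 15 genes were higher and 10 lower with reserpine, a called share of 45.5% against 31.6% of all genes (15.7% higher and 16.0% lower). Here 5 changed at least 2-fold, 9.09% against 10.8% of all genes, so the share of large changes was close to the background. Against vehicle, TEV plus reserpine cells had 15 genes higher and 14 lower, 52.7% against 39.1% of all genes (19.1% higher and 19.9% lower). At least 2-fold changes were called for 14, or 25.5% against 17.6%. Read by route, 7 of the 19 tested clathrin pathway genes were higher with TEV and 4 lower, 1 and 1 of the 5 caveolar genes, 3 and 1 of the 7 macropinocytic genes, and 3 and 9 of the 15 receptors and proteoglycans. With reserpine against TEV, those counts were 3 and 3, 3 and 0, 1 and 3, and 7 and 3. These 3 comparisons share libraries in pairs, so each is given with its own values. With library size alone as the scaling, the genes called higher with TEV numbered 11 and those called lower 20. The median log2 change of all genes was then -0.11 and 39.8% of all calls were higher, in place of 50.5%.

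**Figure D2:**
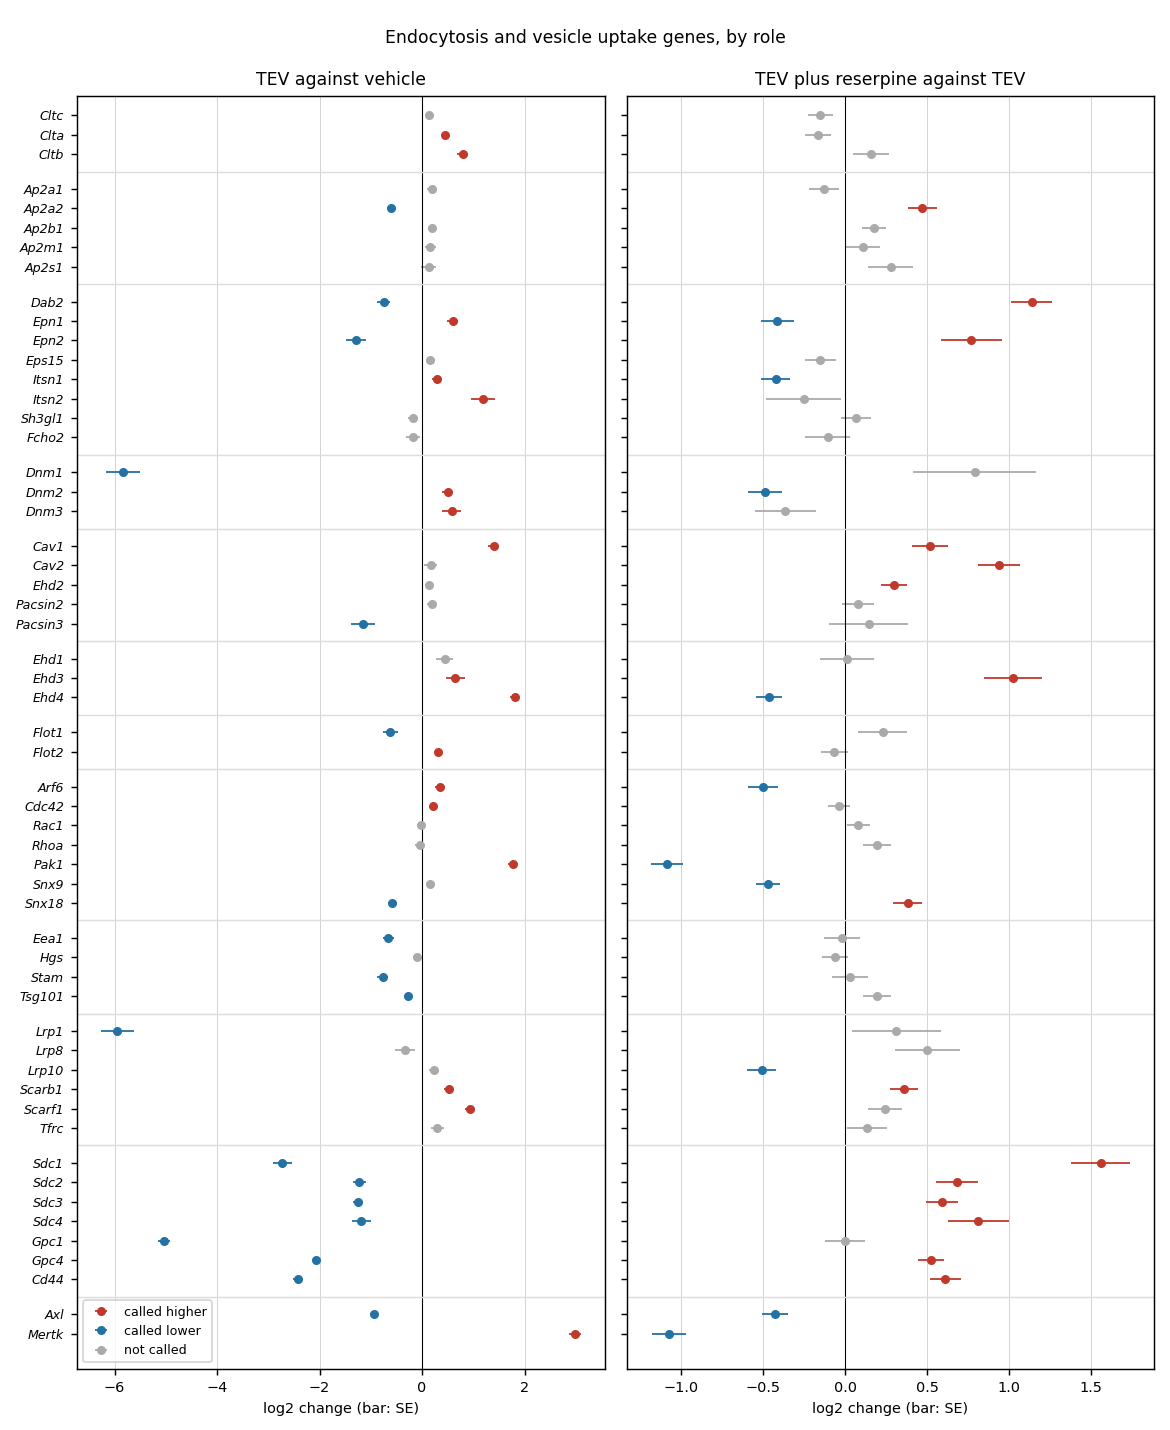
log2 change of the 55 tested genes by role, 1 point per gene, in TEV against vehicle and in TEV plus reserpine against TEV (red called higher, blue called lower, grey not called, bars 1 SE, horizontal scales differ between panels). All 7 proteoglycan and CD44 points lie left of 0 in the first panel, and 6 of them are called to the right of 0 in the second.

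The heparan sulfate proteoglycans and CD44, which hold ligands and vesicles at the cell surface, fell as a group after tumour vesicles. All 7 were called lower by at least 2-fold, with a median log2 change of -2.07. With reserpine before the vesicles, 6 of the 7 stood higher than with vesicles alone, with a median of 0.61. Against vehicle, 6 of the 7 were called lower in TEV plus reserpine cells, with a median of -1.17. The medians of all genes in the 3 comparisons were 0.01, 0.00 and -0.02. The shares of all genes called in the same directions were 24.6%, 15.7% and 19.9%.

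Syndecans are transmembrane proteoglycans. Sdc1 stood at 115 and 113 CPM with vehicle, 13.6 and 20.6 with TEV and 51.0 and 50.6 with TEV plus reserpine. It fell 6.61-fold with TEV (log2 change -2.72 ± 0.19 SE, adjusted p 7.25e-05) and was 2.95-fold higher with reserpine than with TEV alone (log2 1.56 ± 0.18, adjusted p 0.00203). The reserpine libraries lay between the other groups with no overlap, and still 2.24-fold under vehicle (adjusted p 0.00289). Sdc3, the most abundant syndecan per transcript length in each group, was measured at 409 and 388 CPM, then 154 and 180, then 261 and 242. It fell 2.39-fold (adjusted p 0.00013) and was 1.51-fold higher with reserpine (adjusted p 0.00682), again without overlap of the groups. Sdc2 had 80.4 and 77.8 CPM with vehicle, 29.6 and 37.8 with TEV and 53.7 and 54.8 with reserpine, a 2.34-fold fall (adjusted p 0.000373) and a 1.61-fold higher level with reserpine (adjusted p 0.00929). Its levels took the same order as those of Sdc1 and Sdc3. Sdc4, a syndecan of focal adhesions, had 72.2 and 107 CPM with vehicle, 36.8 and 42.0 with TEV and 72.7 and 66.0 with reserpine, so that its reserpine libraries overlapped those of vehicle. It fell 2.27-fold with TEV (adjusted p 0.00234) and was 1.76-fold higher with reserpine (adjusted p 0.0190). The reserpine call on Sdc4 was lost without TEV replicate 1 or without either reserpine library (adjusted p 0.0584 to 0.105). The call on Sdc2 between reserpine and vehicle (log2 -0.54) was lost when any 1 of the 4 libraries compared was left out (adjusted p 0.0528 to 0.0823).

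Glypicans are proteoglycans tethered by a lipid anchor. Gpc1 stood at 102 and 96.2 CPM with vehicle, and at 3.00 and 3.06 with TEV and 3.22 and 2.87 with TEV plus reserpine. It fell 32.7-fold with TEV (log2 change -5.03 ± 0.11 SE, adjusted p 2.18e-06) and was the only one of the 7 with no call between the vesicle groups, whose libraries overlapped. Gpc4 had 259 and 254 CPM, then 58.1 and 63.7, then 85.5 and 89.6, a 4.21-fold fall (adjusted p 1.07e-05) and a 1.44-fold higher level with reserpine (adjusted p 0.00527). CD44, the hyaluronan receptor that also carries glycosaminoglycan chains, had 672 and 737 CPM with vehicle, 127 and 136 with TEV and 188 and 214 with reserpine. Its fall was 5.35-fold (adjusted p 1.20e-05), and its level was 1.53-fold higher with reserpine than with TEV alone (adjusted p 0.00558). Per kilobase of the longest transcript, the vehicle mean was highest for Cd44 at 125 CPM, followed by Gpc4 at 96.7 and Sdc3 at 80.2. With TEV, Sdc3 came first at 33.6, ahead of Cd44 at 23.4 and Gpc4 at 23.0. With TEV, 10 of 11 fibroblast and 9 of 10 pericyte and smooth muscle markers fell as well. With TEV plus reserpine against TEV, 5 of 11 (45.5%) and 3 of 10 (30%) were called higher and none lower. Of all genes, 15.7% were called higher there. Among those markers were Thy1, which had risen with TEV, and Mcam, which was not called with TEV. The others, Col3a1, Dcn, Fbln1, Mfap5, Myh11 and Notch3, had been called lower with TEV. Col1a1, Col1a2, Pdgfra and Pdgfrb were among the markers not called between the vesicle groups. The part of fibroblasts and pericytes in the levels of the 7 genes was not tested.

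**Figure D3:**
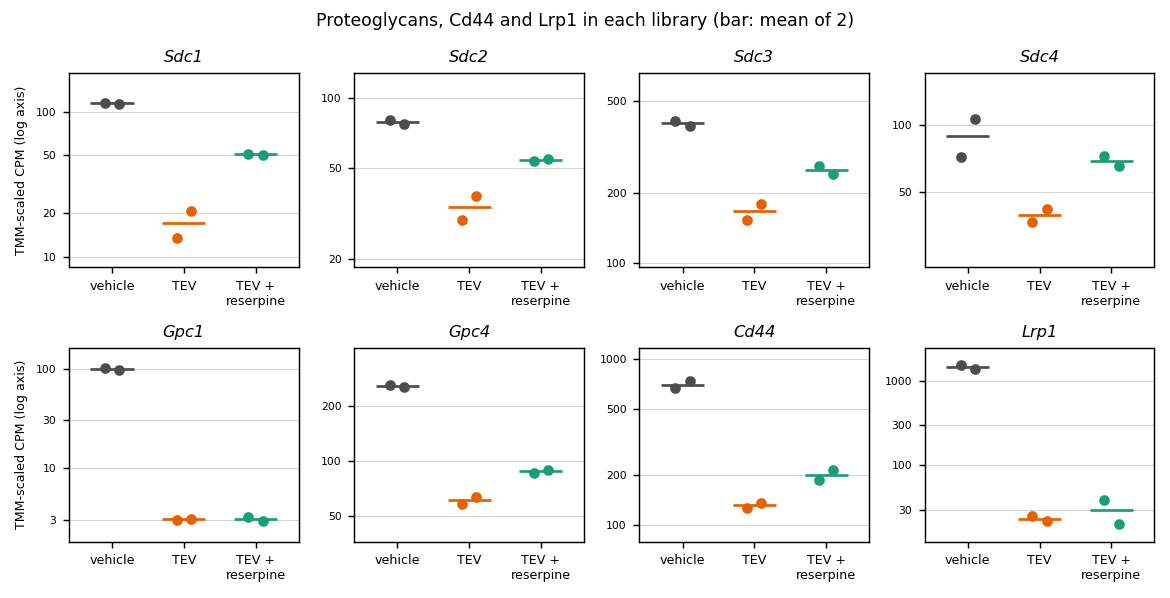
Expression of 7 proteoglycan and CD44 genes and of Lrp1 in each of the 6 libraries (CPM, log axis, 1 point per library, bars at the mean of 2). The TEV points lie under the vehicle points in every panel, and those of Gpc1 lie at 3.00 and 3.06 CPM against 96.2 and 102 CPM.

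Lrp1, a large endocytic receptor for lipoproteins, protease complexes and dying cells, showed the largest fall of the 55 genes with TEV. It stood at 1542 and 1378 CPM with vehicle, 25.1 and 22.3 with TEV and 39.1 and 20.2 with TEV plus reserpine. The fall was 61.8-fold with TEV (log2 change -5.95 ± 0.32 SE, adjusted p 2.96e-05) and 49.8-fold with TEV plus reserpine (adjusted p 6.60e-05). Both vesicle groups were far below vehicle and overlapped each other. Fibroblast markers, summed, fell in the same libraries, to 343 to 510 from 3003 to 3462 CPM. Thy1, the only one that rose, made up 286 to 409 CPM of the sums in the vesicle libraries. The median log2 change of the 11 tested fibroblast markers was -5.11 with TEV and -4.28 with TEV plus reserpine. Their part in the levels of Lrp1 was not tested. Scarb1 and Scarf1 moved the other way. Scarb1, the receptor for high-density lipoprotein, had 55.6 and 56.5 CPM with vehicle, 76.7 and 84.3 with TEV and 106 and 101 with reserpine, so that the 3 groups rose in steps without overlap. Its level was 1.44-fold higher with TEV than with vehicle (adjusted p 0.00268) and 1.84-fold higher with reserpine than with vehicle (adjusted p 0.000461). Scarf1, an endothelial receptor for modified lipoprotein and apoptotic cells, had 74.7 and 76.8 CPM, then 137 and 153, then 185 and 158, a 1.91-fold rise with TEV (adjusted p 0.000536) and a 2.26-fold rise with both agents (adjusted p 0.000316). Against vehicle, the 12 endothelial markers had a median log2 change of 0.56 with TEV (9 higher, 3 lower) and 0.69 with both agents. Their part in the levels of Scarb1 and Scarf1 was not tested. Lrp10, a receptor of the same family as Lrp1, stood at 193 and 188 CPM with vehicle, 233 and 212 with TEV and 165 and 148 with reserpine, and was 1.42-fold lower with reserpine than with TEV (adjusted p 0.00813). Tfrc, the transferrin receptor, had 45.8 to 53.3 CPM with vehicle and 59.7 to 72.7 CPM in the vesicle libraries. Lrp8, a reelin receptor, had 17.2 to 31.8 CPM in all 6 libraries and was called in none of the comparisons. The Scarb1 step from TEV to reserpine (log2 0.36) was lost without TEV replicate 1 or either reserpine library (adjusted p 0.0587 to 0.107). Against vehicle, the reserpine calls on Lrp10 (lower) and Tfrc (higher) were also lost, for Lrp10 without any 1 of the 4 libraries compared (adjusted p 0.0510 to 0.188) and for Tfrc without vehicle replicate 1 or reserpine replicate 2 (adjusted p 0.146 to 0.173).

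The pair of TAM receptors exchanged their order. Axl stood at 941 and 858 CPM with vehicle, 460 and 483 with TEV and 344 and 357 with TEV plus reserpine, while Mertk stood at 74.0 and 63.3, then 578 and 508, then 252 and 263. Both bind phosphatidylserine through Gas6, and Mertk also through protein S. Mertk rose 7.91-fold with TEV (log2 change 2.98 ± 0.11 SE, adjusted p 9.13e-06), the largest rise of the 55 genes, and was 2.11-fold lower with reserpine than with TEV alone (adjusted p 0.00117). It was still 3.75-fold above vehicle (adjusted p 7.09e-05). Axl fell 1.91-fold with TEV (adjusted p 0.000171) and was 2.56-fold under vehicle with both agents (adjusted p 7.36e-05). Per kilobase of the longest transcript, Axl had 211 CPM and Mertk 16.0 with vehicle, 111 and 126 with TEV, and 82.2 and 59.9 with reserpine. Mertk was thus the higher of the pair per length in the TEV group alone. Pros1, which encodes protein S, had 304 and 313 CPM with vehicle, 780 and 664 with TEV and 450 and 462 with reserpine. It rose by 1.23 on the log2 scale with TEV (adjusted p 0.000112) and stood 0.66 lower on that scale with reserpine than with TEV alone (log2 change -0.66, adjusted p 0.00370). Of the 13 tested genes listed for phosphatidylserine recognition, 3 were higher and 3 lower with TEV, 46.2% called against 49.7% of all genes, which is close to the background. With reserpine against TEV, 4 were higher and 6 lower, 76.9% against 31.6%. Itgb5, a subunit of an integrin that binds the bridging protein Mfge8, had 134 and 118 CPM with vehicle, 2.75 and 2.51 with TEV and 6.88 and 7.21 with reserpine (log2 change -5.59 with TEV, adjusted p 2.18e-06). With TEV, the median log2 change was -5.11 for fibroblast markers and -2.90 for pericyte and smooth muscle markers. For endothelial markers it was 0.56. The part of these cell types in the levels of Axl, Mertk, Pros1 and Itgb5 was not tested. The Axl call between reserpine and TEV (log2 -0.43) was lost without reserpine replicate 1 (adjusted p 0.0532).

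Among the caveolar genes, Cav1 rose with TEV, and Cav1, Cav2 and Ehd2 were higher with TEV plus reserpine than in either other group. Cav1, the main caveolin of endothelium, stood at 309 and 302 CPM with vehicle, 714 and 895 with TEV and 1183 and 1121 with TEV plus reserpine, so the 3 groups did not overlap. It was 2.63-fold higher with TEV than with vehicle (log2 change 1.40 ± 0.11 SE, adjusted p 0.000147) and 3.77-fold higher with both agents (adjusted p 8.02e-05). Cav2, its neighbour on the chromosome and its partner in the caveolar coat, did not follow it with TEV: it had 68.6 and 60.4 CPM with vehicle and 64.4 and 80.5 with TEV, which overlapped, and 133 and 145 with reserpine. Cav2 was 1.92-fold higher with reserpine than with TEV alone (adjusted p 0.00361) and 2.15-fold above vehicle (adjusted p 0.00105). Ehd2, an ATPase at the neck of caveolae, had 586 and 533 CPM, then 599 and 630, then 773 and 740, a level 1.35-fold above vehicle with both agents (adjusted p 0.00590). Summed endothelial markers were higher in the same libraries as Cav1, at 10001 to 10457 CPM against 5042 to 5087. With TEV, 9 of those 12 markers were higher and 3 lower, with a median log2 change of 0.56, and Emcn, Eng and Pecam1 rose most. Their part in the level of Cav1 was not tested. Pacsin2, a membrane-bending protein of caveolae, lay at 132 to 180 CPM with no call. Pacsin3 fell with TEV, from 15.9 and 22.0 CPM to 8.77 and 8.28, 2.22-fold (adjusted p 0.00688), and had 11.3 and 7.58 with reserpine (adjusted p 0.0164 against vehicle). Between reserpine and TEV, the call on Cav1 (log2 0.52) was lost without either reserpine library (adjusted p 0.0531 to 0.0777), and that on Ehd2 (log2 0.30) without TEV replicate 1 or either reserpine library, or with the replicate number as a block (adjusted p 0.0576 to 0.136). The Pacsin3 call against vehicle with both agents was lost without vehicle replicate 2 or reserpine replicate 2 (adjusted p 0.0755 to 0.0805).

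The cavins, the peripheral coat of caveolae, are listed in the table under older symbols. Cavin1 (Ptrf) stood at 496 and 471 CPM with vehicle, 454 and 495 with TEV and 760 and 706 with reserpine, so only the reserpine libraries stood apart (log2 change 0.63 ± 0.08 SE against TEV, adjusted p 0.00291). Cavin2 (Sdpr) had 519 and 449 CPM, then 62.8 and 108, then 283 and 283. It fell 5.64-fold with TEV (adjusted p 0.000294) and was 3.30-fold higher with reserpine than with TEV alone (adjusted p 0.00345), so its course with TEV was the opposite of that of Cav1. Cavin3 (Prkcdbp) had 38.4 and 36.4 CPM, then 25.3 and 30.4, then 58.6 and 47.7 (log2 change 0.93 for reserpine against TEV, adjusted p 0.00476). In that comparison all 3 cavins were higher. Src, the kinase that phosphorylates Cav1, was higher with TEV (log2 change 0.88, adjusted p 0.000717), at 216 and 182 CPM against 105 and 111, and had 114 and 104 with reserpine. The Sdpr call against vehicle with both agents (log2 -0.78) was lost without any 1 of the 4 libraries compared (adjusted p 0.0656 to 0.142).

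EHD ATPases return membrane from endosomes to the surface. Ehd4 stood at 199 and 218 CPM with vehicle, 754 and 702 with TEV and 517 and 537 with TEV plus reserpine. It rose 3.50-fold with TEV (log2 change 1.81 ± 0.08 SE, adjusted p 1.77e-05) and was 1.38-fold lower with reserpine than with TEV (adjusted p 0.00793), with no overlap of the 3 groups. Ehd3 had 56.3 and 62.4 CPM, then 74.7 and 111, then 190 and 190. It was 3.20-fold above vehicle with both agents (adjusted p 0.00071) and 2.04-fold above TEV (adjusted p 0.00774), so reserpine went with a higher Ehd3 and a lower Ehd4. Ehd1 lay at 105 to 185 CPM and was not called. The Ehd3 call between TEV and vehicle (log2 0.65) was lost with library size alone as the scaling and without either vehicle library (adjusted p 0.0530 to 0.101). The flotillins, scaffold proteins of membrane microdomains, moved apart with TEV. Flot1 went from 64.4 and 54.2 CPM to 42.6 and 34.9 (log2 change -0.62, adjusted p 0.0140), and Flot2 from 84.3 and 81.4 to 102 and 103 (log2 change 0.31, adjusted p 0.0194). Neither was called in the other comparisons. The Flot1 call was lost without vehicle replicate 1 or TEV replicate 2 (adjusted p 0.0683 to 0.0830), and the Flot2 call without either vehicle library, without TEV replicate 2 or with library size alone (adjusted p 0.0608 to 0.118).

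**Figure D4:**
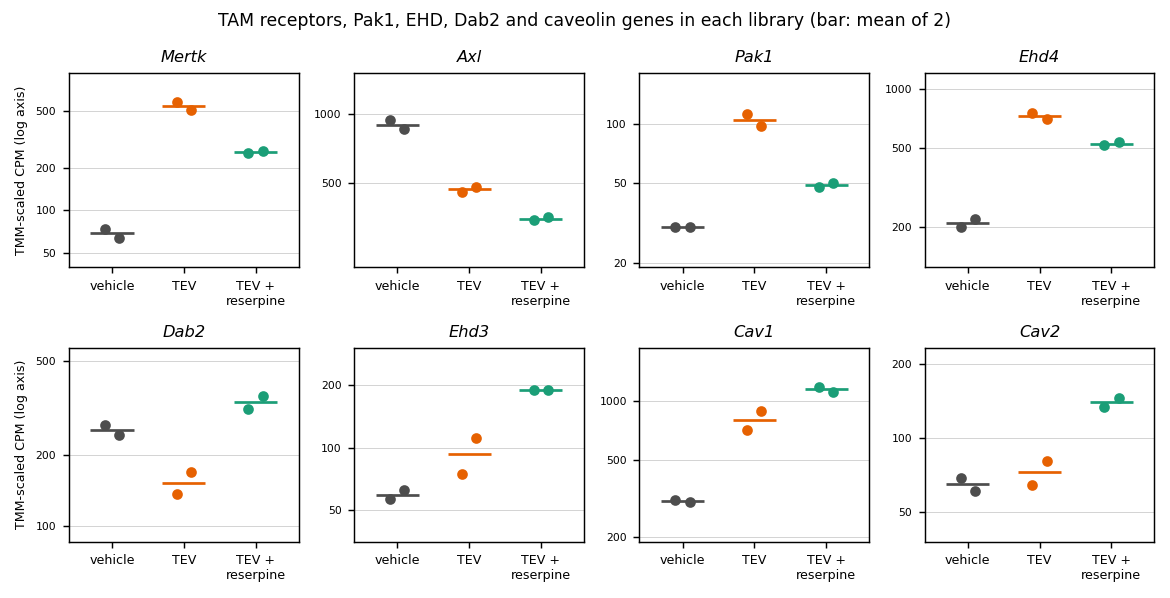
Expression of TAM receptor, Pak1, EHD, Dab2 and caveolin genes in each of the 6 libraries (CPM, log axis, 1 point per library, bars at the mean of 2). Cav1 climbs from 302 to 309 CPM with vehicle to 1121 to 1183 CPM with TEV plus reserpine, and Mertk is highest with TEV, at 508 and 578 CPM.

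Of the clathrin coat, both light chains rose with TEV and the heavy chain was not called. Cltc, the heavy chain, stood at 1113 and 1062 CPM with vehicle, 1253 and 1152 with TEV and 1043 and 1123 with reserpine, and was called in no comparison. Cltb had 49.4 and 54.8 CPM, then 85.0 and 95.0, then 108 and 93.0, a 1.73-fold rise with TEV (log2 change 0.79 ± 0.11 SE, adjusted p 0.00147). Clta, at 145 and 152 CPM with vehicle, 209 and 199 with TEV and 190 and 174 with reserpine, was 1.37-fold higher with TEV (adjusted p 0.00369). Per kilobase of the longest transcript, Cltc exceeded both light chains in each group, at 167 CPM with vehicle against 87.0 for Clta and 23.8 for Cltb. Of the 5 AP2 subunits, 1 (20%) was called with TEV, against 49.7% of all genes. Ap2a2, an alpha subunit, had 213 and 193 CPM with vehicle, 128 and 140 with TEV and 189 and 183 with reserpine, a 1.52-fold fall with TEV (adjusted p 0.00169). The other alpha subunit, Ap2a1, lay at 173 to 206 CPM with no call. Ap2b1 stood at 299 and 290 CPM with vehicle and 367 and 391 with both agents (log2 change 0.36, adjusted p 0.00832). Ap2m1 lay at 348 to 459 CPM and Ap2s1 at 59.1 to 92.2 CPM, and neither was called. The Ap2a2 call between reserpine and TEV (log2 0.47) was lost without TEV replicate 1 or reserpine replicate 1 (adjusted p 0.0516 to 0.0540), and the Ap2b1 call without vehicle replicate 2 (adjusted p 0.0629). The Clta call between both agents and vehicle (log2 0.29) was lost without either vehicle library, without reserpine replicate 1 or with the replicate number as a block (adjusted p 0.0562 to 0.163).

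Among the accessory proteins of clathrin pits, Dab2 and Epn2 fell with TEV while Epn1 and Itsn2 rose. Dab2, an adaptor that loads lipoprotein receptors and integrins into pits, had 268 and 244 CPM with vehicle, 137 and 168 with TEV and 314 and 358 with TEV plus reserpine. It fell 1.68-fold with TEV (log2 change -0.75 ± 0.12 SE, adjusted p 0.00278) and was 2.20-fold higher with reserpine than with TEV alone (adjusted p 0.00166). The reserpine libraries were above those of both other groups. Epn2, an epsin that bends the membrane, had 92.1 and 93.9 CPM, then 30.3 and 45.5, then 60.1 and 69.7, a 2.44-fold fall with TEV (adjusted p 0.00159). Its paralog Epn1 had 88.8 and 88.9 CPM, then 141 and 128, then 109 and 92.9, a 1.51-fold rise (adjusted p 0.00318). Epsin levels thus moved in opposite directions with TEV. Itsn2, a scaffold that links pits to actin, had 16.4 and 12.5 CPM with vehicle, 36.6 and 29.4 with TEV and 33.2 and 22.3 with reserpine, a 2.27-fold rise with TEV (adjusted p 0.00556). Eps15, Sh3gl1 and Fcho2 lay at 106 to 131, 75.7 to 88.7 and 26.8 to 36.9 CPM and were not called, and Itsn1, at 85.5 to 119 CPM, was called higher with TEV than with vehicle and lower with reserpine than with TEV. Between reserpine and TEV, the calls on Epn1 (log2 -0.41), Epn2 (log2 0.77) and Itsn1 (log2 -0.42) were lost without reserpine replicate 2 (adjusted p 0.0767 to 0.106), those on Epn1 and Itsn1 also without TEV replicate 1 (0.109 and 0.0536), and those on Epn2 and Itsn1 also without reserpine replicate 1 (0.0585 and 0.0555). Against vehicle, the calls with both agents on Dab2 (log2 0.39, lost without any 1 of the 4 libraries, with library size alone and with the replicate block) and Itsn2 (log2 0.93, lost without vehicle replicate 2 or reserpine replicate 1) went to an adjusted p of 0.0587 to 0.191 and of 0.0847 to 0.0942. The Itsn1 call with TEV (log2 0.29) was lost under 7 alternatives, among them library size alone and the omission of vehicle replicate 2, TEV replicate 1, TEV replicate 2 or reserpine replicate 2 (adjusted p 0.0506 to 0.221).

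Dynamins cut the neck of the pit. Dnm1, the form best known from neurons, stood at 18.1 and 17.3 CPM with vehicle, 0.194 and 0.382 with TEV and 0.670 and 0.431 with TEV plus reserpine. The same fall in fibroblast and pericyte markers stood beside it, and its part was not tested. Dnm1 fell 56.9-fold with TEV (log2 change -5.83 ± 0.33 SE, adjusted p 3.85e-05) and 32.9-fold with both agents (adjusted p 0.000109). Dnm2, the ubiquitous form, had 198 and 193 CPM, then 301 and 252, then 206 and 188. It was 1.41-fold higher with TEV than with vehicle (adjusted p 0.00729) and 1.40-fold lower with reserpine than with TEV (adjusted p 0.0149), and the reserpine libraries overlapped those of vehicle. Per kilobase of the longest transcript, Dnm2 was the most abundant dynamin in each group, at 55.7 CPM with vehicle against 3.84 for Dnm1 and 1.44 for Dnm3. Dnm3 had 9.33 to 18.2 CPM in the 6 libraries and was called higher with TEV than with vehicle (log2 0.58, adjusted p 0.0387). That call was lost under 7 alternatives, among them library size alone and the omission of vehicle replicate 2, TEV replicate 2 or either reserpine library (adjusted p 0.0625 to 0.188). The Dnm2 call between reserpine and TEV was lost without TEV replicate 1 or reserpine replicate 2 (adjusted p 0.0584 to 0.0778).

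Of the 7 macropinocytic genes, Pak1 changed most. Pak1, a kinase that Rac1 and Cdc42 activate and that drives actin ruffling, stood at 30.4 and 30.3 CPM with vehicle, 112 and 96.9 with TEV and 47.9 and 50.1 with TEV plus reserpine. It rose 3.44-fold with TEV (log2 change 1.78 ± 0.10 SE, adjusted p 3.53e-05) and was 2.13-fold lower with reserpine than with TEV alone (adjusted p 0.000931), with all 3 groups apart. The GTPases Rac1, Cdc42 and Rhoa moved little. Rac1 lay at 493 to 540 CPM and Rhoa at 468 to 588 CPM with no call, and Cdc42, at 479 to 567 CPM, was called higher with TEV (log2 0.22, adjusted p 0.0297). Arf6, a GTPase of membrane ruffles and recycling, had 75.5 and 78.0 CPM, then 104 and 91.3, then 71.2 and 66.5. It was 1.42-fold lower with reserpine than with TEV (adjusted p 0.00983). Snx9 and Snx18 are related membrane-bending sorting nexins. Snx9 stood at 295 and 275 CPM, then 318 and 312, then 230 and 225 (1.39-fold lower with reserpine than with TEV, adjusted p 0.00541). Snx18 stood at 63.8 and 68.1, then 42.8 and 45.4, then 58.8 and 56.2 (1.49-fold lower with TEV than with vehicle, adjusted p 0.00185). Reserpine thus went with a lower Snx9 and, relative to TEV, a higher Snx18. The Cdc42 call was lost under 8 alternatives, among them library size alone and the omission of any 1 of the 4 libraries compared (adjusted p 0.0532 to 0.263). The Arf6 rise with TEV (log2 0.35, adjusted p 0.0205) was lost with library size alone, without either vehicle library or without TEV replicate 1 (adjusted p 0.0773 to 0.111), and the reserpine call without reserpine replicate 2 (adjusted p 0.0554). The Snx18 call between reserpine and TEV (log2 0.38) was lost without TEV replicate 1 or either reserpine library (adjusted p 0.0552 to 0.0928), and the Snx9 call against vehicle (log2 -0.32) without vehicle replicate 1 or either reserpine library (adjusted p 0.0547 to 0.108).

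Of the 4 genes of early endosomes and the ESCRT sorting complexes, 3 (75%) fell with TEV, against 24.6% of all genes. None was called between the vesicle groups, where 31.6% of all genes were. Of 24 other endosome, ESCRT and retromer genes, 7 were higher and 1 lower with TEV. Eea1, a tether of early endosomes, had 104 and 98.3 CPM with vehicle, 65.2 and 62.6 with TEV and 56.8 and 69.3 with reserpine, a 1.58-fold fall with TEV (adjusted p 0.00291). Stam, which sorts ubiquitinated cargo together with Hgs, had 87.3 and 95.6 CPM, then 54.8 and 52.8, then 49.9 and 59.9, a 1.70-fold fall (adjusted p 0.00157). Both were lower than vehicle with reserpine too, by log2 changes of -0.68 (adjusted p 0.00389) and -0.73 (adjusted p 0.00287). Hgs, at 101 to 118 CPM, was not called. Tsg101, a subunit of ESCRT-I, had 51.6 and 51.7 CPM with vehicle and 43.9 and 41.8 with TEV (log2 -0.27, adjusted p 0.0334). The Tsg101 call was lost without any 1 of the 4 libraries compared, with the replicate block and with no count filter (adjusted p 0.0598 to 0.140).

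Other genes of the same pathways were counted from lists drawn up by function. Of 27 tested lipoprotein and scavenger receptors outside the 56, 4 were higher and 16 lower with TEV, with a median log2 change of -1.24. The called share was 74.1%, against 49.7% of all genes. Mrc2, a collagen uptake receptor of mesenchymal cells, went from 309 and 268 CPM to 4.03 and 5.08 (log2 change -5.96, adjusted p 2.83e-06). Stab1, a scavenger receptor of sinusoidal and lymphatic endothelium, rose from 1417 and 1282 CPM to 2002 and 1898 (log2 change 0.53, adjusted p 0.00208). Of 24 tested genes for proteoglycan cores and heparan sulfate synthesis, 5 were higher and 12 lower with TEV (70.8% called), with a median of -0.30. Sulf1, which removes sulfate groups from heparan sulfate chains, had 272 and 260 CPM with vehicle and 25.2 and 25.1 with both agents (log2 change -3.40, adjusted p 3.55e-06). It was called higher with both agents than with TEV alone, a call lost without TEV replicate 1 (log2 change 0.37). Sulf2, of the same list, averaged 233 CPM with vehicle, 145 with TEV and 261 with both agents. It was called lower with TEV (log2 change -0.68) and higher with reserpine than with TEV (log2 change 0.85). The TEV call was lost without either vehicle library and the reserpine call without either reserpine library. Hs3st1, which adds sulfate groups to heparan sulfate chains, had 108 and 78.3 CPM with TEV and 13.9 and 16.2 with reserpine (log2 change -2.62, adjusted p 0.000757), near the vehicle values of 16.1 and 11.5. Of 21 macropinocytic genes, 7 were higher and 7 lower with TEV (66.7% called), and 4 were higher and 11 lower with reserpine than with TEV (71.4% called, against 31.6% of all genes), with a median of -0.36. Of 28 clathrin accessory genes, 11 were higher and 5 lower with TEV (57.1% called), and of 24 endosome, ESCRT and retromer genes 7 were higher and 1 lower (33.3% called), so the first share was near the 49.7% of all genes and the second under it. Fnbp1, which bends membrane at pits, stood at 70.7 and 62.3 CPM with vehicle and 260 and 217 with TEV (log2 change 1.84, adjusted p 6.02e-05). Snx17, which recycles Lrp1 and integrins, stood at 83.3 and 87.7 CPM with vehicle, 174 and 148 with TEV and 101 and 83.7 with reserpine (log2 change 0.91 with TEV, adjusted p 0.00115).

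Promoter sequences were available for 47 of the 56 genes, as 60 windows of 250 bases before RefSeq start sites (build GRCm38.p6). Their median GC content was 60.8% against 52.4% for all 32851 windows, and the GC box GGGCGG, on either strand, was found in 56.7% against 32.7%. The CCAAT box, on either strand, was found in 31.7% against 33.8%. The motif TGANTCA, bound by AP-1 factors, was found in 3.33% against 6.75%, TGACGTCA in 5.0% against 1.55%, CACGTG in 10.0% against 6.02% and TATAAA in 6.67% against 12.4%, each on both strands. The windows of 4 genes that the results turn on are shown: the neighbours Cav1 and Cav2, which differed with TEV, Sdc1, whose fall was the largest of the syndecans, and Mertk, which rose most. Cav1 lies at chr6:17306085-17306334 (the first of 2 start sites), Cav2 at chr6:17280935-17281184, Sdc1 at chr12:8771146-8771395 and Mertk at chr2:128698665-128698914, all on the plus strand. Capitals mark GC boxes, CCAAT boxes and the TGANTCA motif on either strand.
Cav1: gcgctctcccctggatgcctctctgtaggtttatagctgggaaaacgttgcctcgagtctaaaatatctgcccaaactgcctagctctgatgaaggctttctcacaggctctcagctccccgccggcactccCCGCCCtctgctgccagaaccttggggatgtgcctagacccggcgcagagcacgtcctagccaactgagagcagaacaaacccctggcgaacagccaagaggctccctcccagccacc
Cav2: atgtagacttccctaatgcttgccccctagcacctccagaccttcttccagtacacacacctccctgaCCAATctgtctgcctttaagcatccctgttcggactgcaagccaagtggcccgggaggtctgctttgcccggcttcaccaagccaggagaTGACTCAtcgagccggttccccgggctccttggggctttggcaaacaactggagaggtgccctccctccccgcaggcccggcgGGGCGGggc
Sdc1: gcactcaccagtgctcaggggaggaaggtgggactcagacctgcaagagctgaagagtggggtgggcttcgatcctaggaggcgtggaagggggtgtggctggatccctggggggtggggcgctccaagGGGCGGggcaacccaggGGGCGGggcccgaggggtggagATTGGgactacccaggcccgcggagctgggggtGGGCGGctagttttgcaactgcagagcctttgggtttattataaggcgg
Mertk: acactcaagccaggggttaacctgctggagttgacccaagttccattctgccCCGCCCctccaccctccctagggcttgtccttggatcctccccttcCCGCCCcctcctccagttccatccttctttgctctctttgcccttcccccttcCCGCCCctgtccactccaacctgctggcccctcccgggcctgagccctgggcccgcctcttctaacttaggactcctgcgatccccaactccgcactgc
Of these 4 windows, that of Cav2 alone held TGANTCA, while those of Sdc1 and Mertk held 3 GC boxes each and those of Cav1 and Cav2 held 1. Such matches describe the letters of the windows only.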

How the data were processed

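Poly(A) RNA was sequenced as 75 bp single-end reads, per the labels' protocols. The authors' deposited values are estimated counts per gene, from kallisto 0.45.0 with R 4.0.0, edgeR and limma also named, per the submitters' processing notes. Those notes name the build GRCh38, although the symbols are of mouse genes. The role of each tool and the annotation are not given in the sources used here. A second deposited table held the 13098 genes left by a filter of over 1 CPM in 2 libraries, with the same values, and was only compared. The descriptions number the vesicle libraries differently from the titles, whose numbers are used. Reserpine before PBS as well is another possible reading of the design text. The label of each library was followed.

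Estimated counts were rounded and analysed in R 4.3.3 with edgeR 4.0.16: filterByExpr, TMM scaling, and the quasi-likelihood test over all 6 libraries in 1 fit (3 residual degrees of freedom), with Benjamini-Hochberg adjustment over 15035 genes. Genes were called at an adjusted p under 0.05. Standard errors (SE) are the log2 change over the square root of F. With 2 libraries a group, each library's value is printed in place of an SD. Replicates differed by more than counting noise (mean chi-square per gene 19.5 to 43.3). Alternatives were other scalings, DESeq2 1.42.0, limma 3.58.1 voom, other filters, 4 libraries only, a replicate block and leaving out each library.

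Every listed gene could be named. The other pathway genes named came from those that a rule gave per list and comparison. It gave the called gene of highest mean CPM and up to 2 with the largest change among those of at least 5 CPM. Not all of the genes it gave are named here. The genes and lists were chosen with earlier results of these data known. Levels per kilobase use the longest transcript in GENCODE M21.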

Additional observations from a re-analysis of the deposited data

How the results depend on the processing

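No called value of the 55 genes turned its sign under any of the 14 alternatives tried, and between 0 and 10 calls were lost per alternative and comparison. With library size alone, the genes called higher with TEV numbered 11 in place of 17. Leaving out 1 library at a time gave 8 to 16 genes called higher and 6 to 10 called lower with TEV plus reserpine than with TEV, in place of 15 and 10. The lowest were without reserpine replicate 1 and without reserpine replicate 2. All genes called in that comparison numbered 4757, and 2124, 2581 and 2560 without TEV replicate 1, reserpine replicate 1 and reserpine replicate 2. Against vehicle, those called with TEV plus reserpine numbered 5873, and 3572 without vehicle replicate 1.

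The replicate numbers of the titles are shared between the groups, but the deviations of same-numbered libraries hardly correlated (0.0189, 0.0237 and -0.0418). These numbers were therefore not taken as pairs. Pairing by the numbers of the descriptions was not tested. With the replicate number as a block, 14, 14 and 13 genes were called higher and 18, 10 and 16 lower in the 3 comparisons, in place of 17, 15 and 15 and of 19, 10 and 14.

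In these libraries 3 counts were worth 0.0369 to 0.135 CPM, and Picalm, at 0 in all of them, could not be tested.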
